A study of Schmidtea mediterranea with 8 samples.

Results

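*hh* encodes the Hedgehog (Hh) ligand of the planarian *Schmidtea mediterranea*, and *ptc* encodes Patched, the receptor of that ligand. Both genes were chosen because they were the targets of the RNAi in this experiment, and because *ptc* is also a known target gene of the pathway. They were found by contig identifier, dd_Smed_v4_41965_0_1 for *hh* and dd_Smed_v4_7063_0_2 for *ptc*, and are 2 of the 38634 transcriptome contigs in each of the 3 deposited tables. RNA was sequenced from 4 groups of 2 libraries. Amputated head fragments came from the asexual strain CIW4 after 6 feedings of control dsRNA against *unc-22*, a *Caenorhabditis elegans* gene with no planarian counterpart. Dissected cephalic ganglia, called CNS here, came from the sexual strain S2F1L3F2 after 12 feedings of dsRNA against *unc-22* (control), *hh* or *ptc*. Feedings were 4 days apart in every group. Strain, number of feedings, tissue and the amount of RNA put into a library differ together between head fragments and CNS. The ganglia also came from animals treated with acid, a step not described for the head fragments. The contributions of these factors cannot be told apart.

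In animals generally, Hh is a secreted protein. In its absence Patched holds the membrane protein Smoothened inactive, and binding of Hh to Patched releases Smoothened, which acts through Suppressor of Fused and the Gli transcription factors on target genes. *ptc* is itself transcribed in response to the signal in many animals, so its transcript is used as a readout of pathway activity. In planarians the pathway is known for its part in anterior-posterior patterning during regeneration, and *hh* is expressed in cells of the nervous system.

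For each group the deposited tables give 1 mean of the normalized reads. Because each library adds whole multiples of its own step to that mean, its whole reads could be recovered, and 100% of the means above 0 in each group were solved. The labels a and b used for recovered libraries are not replicate numbers. Depth on contigs ranged from 11479783 to 18914547 reads. The methods say only that libraries were made in duplicate, so p-values measure the spread between these libraries, which may be technical. Across contigs, the log2 difference within a pair of libraries had an SD of 0.187 in head fragments, 0.383 in control CNS, 0.449 in *ptc(RNAi)* and 0.570 in *hh(RNAi)*, and no pair was a duplicate within counting noise. Levels are given as normalized reads with all 8 libraries scaled together. They are not divided by transcript length, so the level of *hh* is not compared with that of *ptc*.

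*hh* was nearly absent from head fragments and well detected in every CNS library. Head libraries a and b held 8 and 4 *hh* reads, or 5.72 and 3.40 normalized reads. The control CNS libraries held 245 and 205 reads, or 256 and 223 normalized reads. Both control CNS libraries were thus far above both head libraries, and both were above in 54.7% of all contigs tested.

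After *hh* RNAi the CNS libraries held 42 and 75 *hh* reads, or 39.3 and 85.1 normalized reads. These libraries differed 2.17-fold from each other, and their 95% exact Poisson intervals, 28.3 to 53.1 and 66.9 to 107 normalized reads, did not overlap. After *ptc* RNAi the libraries held 188 and 189 *hh* reads, or 191 and 192 normalized reads. The *ptc(RNAi)* libraries were thus close to each other, below both control libraries and above both *hh(RNAi)* libraries. Of all contigs tested, 19.2% had both *ptc(RNAi)* libraries below both control libraries, and 19.3% had both *hh(RNAi)* libraries below both *ptc(RNAi)* libraries. Intervals of this kind cover counting error only.

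**Figure D1:**
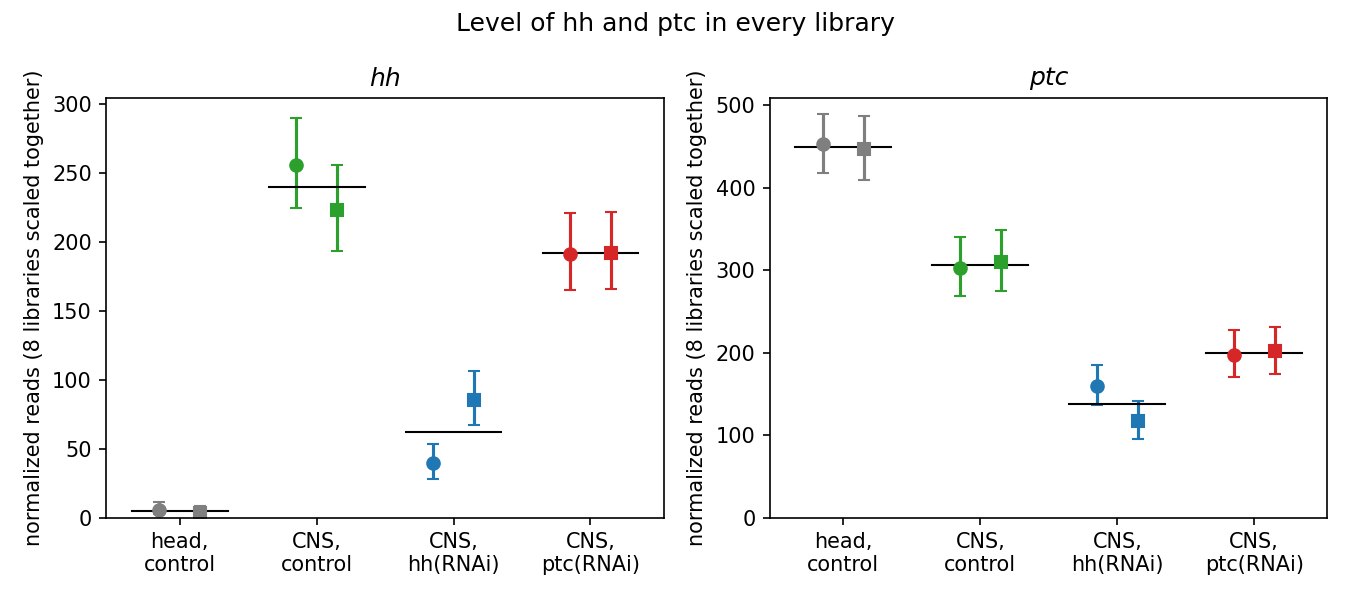
Normalized reads (vertical axis, 8 libraries scaled together, linear from 0) of *hh* (left) and *ptc* (right) in head fragments and CNS. Circles are library a, squares library b, bars the 95% Poisson interval of the reads and black lines the group mean; *hh* averaged 4.56 in head fragments and 239 in control CNS, and *ptc* averaged 449 and 306.

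*ptc* was detected in all libraries, with its highest level in head fragments. Head libraries a and b held 633 and 525 *ptc* reads, or 452 and 446 normalized reads. The control CNS libraries held 290 and 285 reads, or 303 and 310 normalized reads. Both control CNS libraries lay below both head libraries, as for 38.8% of all contigs tested.

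In *ptc(RNAi)* CNS there were 194 and 198 *ptc* reads, or 198 and 201 normalized reads. In *hh(RNAi)* CNS there were 170 and 103 reads, or 159 and 117 normalized reads. The lowest *ptc* levels of the series were therefore in the libraries treated with *hh* dsRNA, not in those treated with *ptc* dsRNA. No groups overlapped for *ptc*, as was so for 93.5% of contigs between CNS and head fragments, 26.5% between *hh(RNAi)* and control, 36.4% between *ptc(RNAi)* and control and 34.4% between the RNAi treatments. The Poisson interval of *hh(RNAi)* library a, 136 to 185 normalized reads, met that of *ptc(RNAi)* library a, 171 to 227, while the interval of *hh(RNAi)* library b ended at 142.

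As mean ± SD (n = 2), *hh* had 239 ± 23.1 normalized reads in control CNS, 192 ± 0.571 in *ptc(RNAi)*, 62.2 ± 32.4 in *hh(RNAi)* and 4.56 ± 1.64 in head fragments. In a limma fit over all 8 libraries with Benjamini-Hochberg adjustment over 12937 contigs, the *hh* level in head fragments was below that in *hh(RNAi)* by a log2 difference of -3.44 (95% interval -4.40 to -2.47, adjusted p = 0.000187), a step at which 45.7% of all contigs tested were called lower in head fragments. *hh* passed the minimum average of 100 in that fit only through its levels in control CNS and *ptc(RNAi)*. The steps from control to *ptc(RNAi)* and from *ptc(RNAi)* to *hh(RNAi)* did not pass in that fit, with adjusted p-values of 0.931 and 0.129 from limma. *ptc* had 449 ± 4.20 normalized reads in head fragments, 306 ± 5.24 in control CNS, 199 ± 2.72 in *ptc(RNAi)* and 138 ± 29.8 in *hh(RNAi)*. Of its neighbours in this order, head fragments and control CNS differed by 0.55 (0.18 to 0.92, adjusted p = 0.0140 from limma), where 30.9% of all contigs were called higher in head fragments. The steps to *ptc(RNAi)* and to *hh(RNAi)* had adjusted p-values of 0.375 and 0.202 from the same limma fit.

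The assembly holds a second contig of the *ptc* component, dd_Smed_v4_7063_0_1, while *hh* is the 1 contig of its component. The authors kept the best single alignment of each read, so reads from sequence shared by these contigs could be split between them, and the level of either contig alone is uncertain. Over all 8 libraries, 2398 reads lay on dd_Smed_v4_7063_0_2 and 2326 on dd_Smed_v4_7063_0_1, a share of 50.8% for the former (95% exact Clopper-Pearson interval 49.3% to 52.2%). The share ran from 49.7% to 53.7% in single libraries, and every library's interval included an even split.

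The log2 fold changes of the contigs differed by at most 0.08 in size in any comparison. Summing the reads of both contigs, an alternative chosen after the data were seen, gave log2 fold changes of -0.45 for control CNS over head fragments, -1.11 for *hh(RNAi)* over control CNS, -0.56 for *ptc(RNAi)* over control CNS and -0.56 for *hh(RNAi)* over *ptc(RNAi)*. The sum therefore altered no call. The values of *ptc* that follow are those of dd_Smed_v4_7063_0_2.

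**Figure D2:**
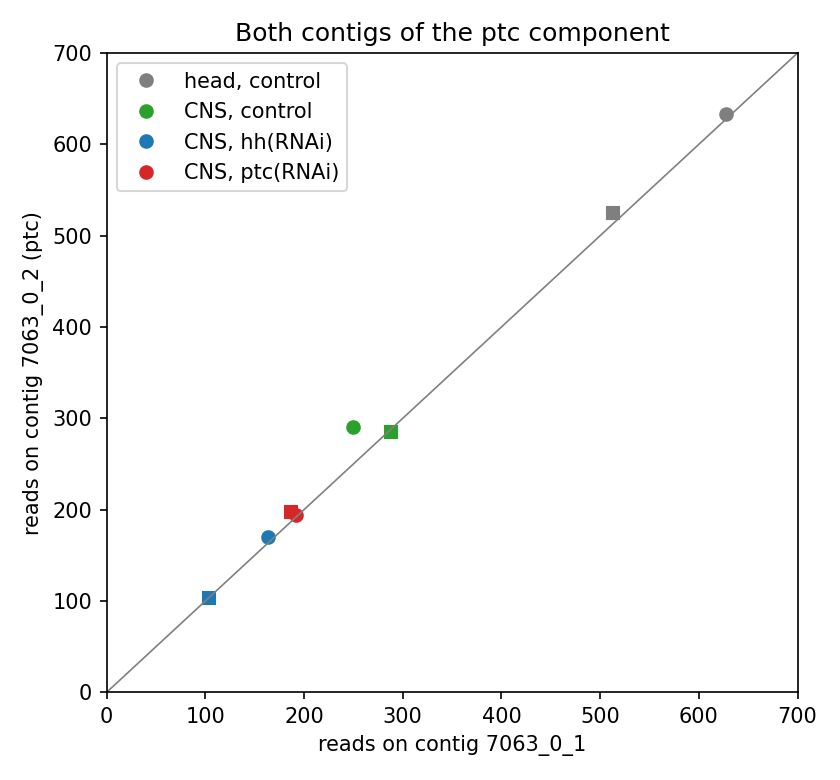
Recovered reads on dd_Smed_v4_7063_0_2 (vertical axis) against reads on dd_Smed_v4_7063_0_1 (horizontal axis) in each of the 8 libraries, coloured by group, with circles for library a, squares for library b and a grey line where both are equal. The points follow the line, from 103 and 104 reads in *hh(RNAi)* library b to 633 and 628 in head library a.

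To place both genes in the tissue, control CNS was compared with control head fragments. For this comparison, and for each RNAi group against control CNS, limma was run with its 4 libraries as log2(normalized reads + 1), for contigs averaging at least 100 normalized reads, with Benjamini-Hochberg adjustment over all contigs tested and a call at an adjusted p under 0.05. *hh* was higher in CNS by a log2 fold change of 5.61 (SE 0.37, 95% interval 4.63 to 6.58, adjusted p = 0.000151 from limma), and the ratio of the group means was 57.7. With 12 reads in both head libraries together, this scale understates the change. In this comparison *hh* averaged 4.71 normalized reads in head fragments and 272 in CNS. It therefore passed the minimum, and could be tested, only through its high level in CNS. With no minimum its log2 fold change was also 5.61, with an adjusted p of 0.000227 from limma over 37632 contigs. *ptc* was lower in CNS by a log2 fold change of -0.42 (SE 0.07, interval -0.61 to -0.22, adjusted p = 0.00459 from limma), at 74.9% of the head mean. Of the 13494 contigs tested, 50.3% were called higher and 34.5% lower, and both CNS libraries were above both head libraries in 54.7% and below them in 38.8%, so a call on its own sets neither gene apart. By size, *hh* ranked 101 among all rises, a rank open to it only because its CNS level passed the minimum.

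The tissue difference depends on the scale. The median log2 fold change of all contigs tested was 0.32, and relative to this median *hh* was at 5.29 and *ptc* at -0.74. Scaled on 4 neuronal markers, among them the prohormone convertase gene *pc2* and the choline acetyltransferase gene *chat*, *hh* was at 2.51 (adjusted p = 0.00166 from limma) and *ptc* at -3.71 (adjusted p = 1.11e-06). *hh* thus remained higher in CNS on the scale of the 4 neuronal markers. The *ptc* call was lost when the libraries were scaled on *gapdh*, at -0.30 (adjusted p = 0.0591 from limma), and when head library a was left out, at -0.41 (adjusted p = 0.0516). Other tools put *ptc* further below the head level, at -0.72 in edgeR (adjusted p = 0.000482) and -0.74 in DESeq2 (adjusted p = 1.36e-05). These tools called 42.1% and 40.2% of all contigs lower. In bulk tissue, fewer cells of a type and less RNA per cell cannot be told apart.

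To ask how far the ligand's transcript was reduced by its own dsRNA, and whether the receptor's transcript moved with it, *hh(RNAi)* was compared with control CNS. *hh* was at 26.1% of the control mean, a log2 fold change of -2.01 (SE 0.38, interval -2.97 to -1.05). Its adjusted p from limma was 0.9999, so it was not called. *ptc* was at 45.8% of the control mean, a log2 fold change of -1.14 (SE 0.22, interval -1.69 to -0.60, adjusted p = 0.9999 from limma). For either gene the highest *hh(RNAi)* library was below the lowest control library, as it was for 15.7% of all 12153 contigs tested.

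Limma called 1 contig in this comparison, or 0.00823% of those tested, and neither *hh* nor *ptc* was among the calls. In the order of unadjusted p, *ptc* ranked 25 and *hh* 26 of the 12153 contigs, while 1.93% had an unadjusted p under 0.05 and a lower level. By size of the fall *hh* ranked 34 and *ptc* 122, and 1.28% of contigs were more than 2-fold lower, as both of these genes were. DESeq2 on the recovered reads called *hh*, with an adjusted p of 0.00374, and did not call *ptc*, with an adjusted p of 0.132. That tool called 0.344% of contigs lower and none higher, with 0.403% higher at an unadjusted p under 0.05, while edgeR called 0.0165% lower and gave both genes adjusted p-values of 0.999.

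*hh(RNAi)* library a was at 16.4% and library b at 35.5% of the control mean for *hh*. For *ptc* the order was turned, with library a at 51.9% and library b at 38.1%. The library with the lower *hh* level was therefore the one with the higher *ptc* level. The Poisson intervals for *ptc* in libraries a and b, 136 to 185 and 95.4 to 142 normalized reads, overlapped. With 2 libraries, a relation between the levels of these genes was not tested. Leaving out 1 library at a time gave log2 fold changes from -2.52 to -1.49 for *hh* and from -1.39 to -0.89 for *ptc*.

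In *ptc(RNAi)* against control CNS, *ptc* was at 66.8% of the control mean, a log2 fold change of -0.58 (SE 0.13, interval -0.90 to -0.26, adjusted p = 0.308 from limma). *hh* was at 82.1%, a log2 fold change of -0.28 (SE 0.15, interval -0.65 to 0.09, adjusted p = 0.848 from limma). Neither was called, where limma called 0.0743% of 12121 contigs lower. Both *ptc(RNAi)* libraries lay below both control libraries for either gene, as for 19.2% of contigs, and the interval for *hh* included no change. By size of the fall *ptc* ranked 209 and *hh* 920. DESeq2, which called 0.388% of contigs lower, and edgeR, which called 0.066% lower, did not call *ptc*, with adjusted p-values of 0.398 and 0.386. Both RNAi comparisons share the control libraries.

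The RNAi treatments were therefore also set against each other directly, in a limma fit over the 6 CNS libraries, scaled together, in which the control libraries entered the estimate of the spread. *hh* was lower in *hh(RNAi)* than in *ptc(RNAi)* by a log2 fold change of -1.74 (SE 0.34, interval -2.57 to -0.91, adjusted p = 0.155 from limma), at 31.6% of the *ptc(RNAi)* mean. *ptc* was at 68.1% of the *ptc(RNAi)* mean, a log2 fold change of -0.57 (SE 0.19, interval -1.04 to -0.10, adjusted p = 0.478 from limma). Neither passed the threshold, where limma called 0.528% of 12123 contigs lower. Both libraries of *hh(RNAi)* lay below both of *ptc(RNAi)* for either gene, as for 19.3% of contigs. DESeq2 called 1.81% of contigs lower, among them *hh* with an adjusted p of 0.000642, and gave *ptc* an adjusted p of 0.704. Without *hh(RNAi)* library b, limma also called *hh*, at -2.26 with an adjusted p of 0.0122.

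The ratio of *hh* reads to *ptc* reads within a library does not depend on the scaling between libraries. Its log2 was -6.31 and -7.04 in head fragments and -0.24 and -0.48 in control CNS. It was -2.02 and -0.46 in *hh(RNAi)* libraries a and b, and -0.05 and -0.07 in *ptc(RNAi)*. The ratio was far lower in head fragments than in any CNS library, library b of *hh(RNAi)* lay between the control libraries, and both *ptc(RNAi)* libraries lay above them. These are ratios of reads, not of transcripts per length. No counting interval was computed for them, so the order of close values, such as -0.24 and -0.07, is a description only.

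**Figure D3:**
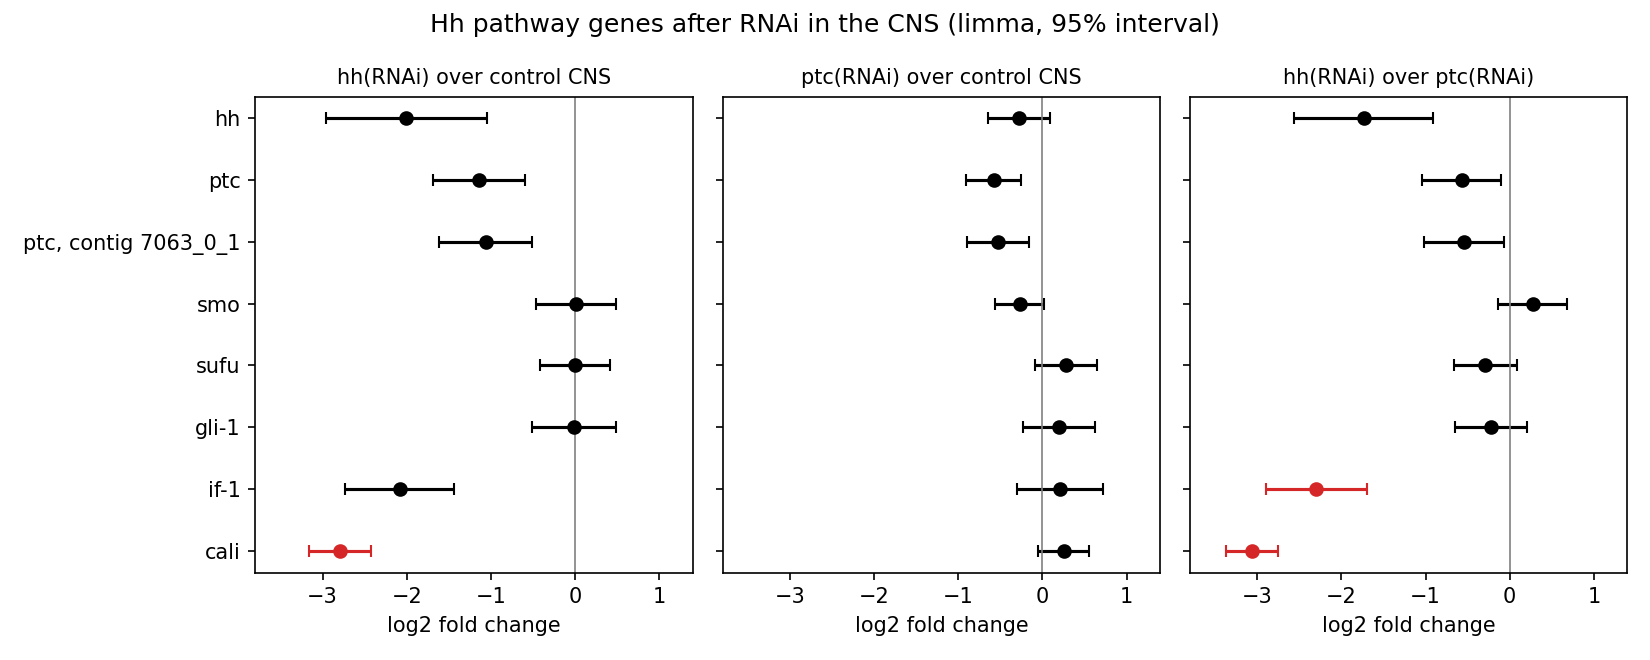
Log2 fold change (horizontal axis) with its 95% limma interval for *hh*, *ptc*, the second *ptc* contig, the signal transducers *smo*, *sufu* and *gli-1*, and *if-1* and *cali*, in *hh(RNAi)* over control CNS (left), *ptc(RNAi)* over control CNS (middle) and *hh(RNAi)* over *ptc(RNAi)* (right). Red marks an adjusted p under 0.05; *hh* and *ptc* lie left of 0 in all panels and are black, and *cali* is red at -2.80 on the left.

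Downstream of the receptor, the pathway list held *smo* (Smoothened), *sufu* (Suppressor of Fused, which restrains Gli factors in vertebrates) and *gli-1*, *gli-2* and *gli-3*, which encode Gli-type transcription factors. In CNS against head fragments 3 of these 5 genes had enough reads to be tested, and limma called 2 higher and 1 lower, where 50.3% of all contigs were called higher and 34.5% lower. The log2 fold change was 0.86 for *smo*, 0.41 for *sufu* and -2.09 for *gli-1*. The call for *sufu* (adjusted p = 0.0171 from limma) was not shared by edgeR or DESeq2, which gave adjusted p-values of 0.420 and 0.725. *gli-2* had 6 and 4 reads in the head libraries and at most 1 in any CNS library. *gli-1* was thus the tested transducer whose direction matched that of *ptc*.

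After *hh* RNAi limma called 0 of these 3 tested transducers, and after *ptc* RNAi also 0. In either comparison 0 had an unadjusted p under 0.05, and none was called by edgeR or DESeq2. Of all contigs, limma called 0.00823% after *hh* RNAi and 0.347% after *ptc* RNAi, so the lack of calls says little about these transducers. Their log2 fold changes over control were 0.02, 0.0037 and -0.01 for *smo*, *sufu* and *gli-1* in *hh(RNAi)*, with intervals no wider than -0.51 to 0.49. In *ptc(RNAi)* they were -0.27, 0.28 and 0.20. The libraries of all 3 overlapped those of the control in *hh(RNAi)*, where 26.5% of contigs did not overlap in either direction. In *ptc(RNAi)* those of all 3 did not overlap, with *smo* below and *sufu* and *gli-1* above the control, as for 36.4% of contigs.

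*if-1*, which encodes an intermediate filament protein, and *cali* are known in planarians as genes whose expression in glial cells depends on Hh. The study chose them on these libraries, so their direction is no independent evidence. In *hh(RNAi)* library a and b *cali* had 1186 and 1089 normalized reads, against 7651 and 8418 in control CNS. It fell by 2.80 on the log2 scale (adjusted p = 0.0350 from limma), and was the 1 contig called. *if-1* had a log2 fold change of -2.08 (adjusted p = 0.595 from limma), close in size to that of *hh*, and like *hh* it was called by DESeq2 (adjusted p = 2.41e-11). In *ptc(RNAi)* both were not called, at 0.26 for *cali* and 0.20 for *if-1*, above 0 where *ptc* and *hh* were below it. Between the RNAi treatments both were called, at -3.06 for *cali* and -2.30 for *if-1*, with adjusted p-values of 0.00253 and 0.0285 from limma.

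Markers of other cells were measured in the same libraries. The summed level of 11 markers of neoblasts, epidermal progeny, gland, nephridia, muscle, pharynx, gut and photoreceptors was 101246 to 102092 normalized reads in head fragments, 15302 to 19749 in control CNS, 12808 to 15886 in *hh(RNAi)* and 20836 to 23394 in *ptc(RNAi)*. This sum follows the markers with the most reads. In control CNS library a the pharynx gene *mhc6* held 5500 and the neoblast gene *smedwi-2* 5284 of the 15302. The sum of the 4 neuronal markers was 11255 to 11704 in head fragments, 67110 to 68079 in control CNS, 70409 to 77170 in *hh(RNAi)* and 59389 to 64699 in *ptc(RNAi)*. Neuronal markers were thus far higher in the CNS libraries, and none of these markers was at 0 in any library. Of the 11 markers, 10 were tested in CNS against head fragments and 10 were called lower, where 34.5% of all contigs were. In *hh(RNAi)* against control CNS limma called 0 of the 8 tested, where it called 0.00823% of all contigs. In *ptc(RNAi)* it called 1 higher of 8, where 0.272% of all contigs were called higher. Between the RNAi treatments it called 1 lower of 8, where 0.528% of all contigs were called lower. At such shares the lack of a call says little about a marker.

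Among them *smedwi-1*, a neoblast marker, had 1443 and 1894 normalized reads in control CNS, 776 and 787 in *hh(RNAi)* and 4530 and 2929 in *ptc(RNAi)*. Like *ptc*, it was lowest in *hh(RNAi)*, but unlike *ptc* it was higher in *ptc(RNAi)* than in control CNS. Its log2 fold change was -1.06 in *hh(RNAi)* and 1.18 in *ptc(RNAi)*, called by DESeq2 (adjusted p = 0.000566 and 9.42e-06) and not by limma (adjusted p = 0.880 and 0.160). Between the RNAi treatments limma called it, at -2.25 (adjusted p = 0.0273). The other neoblast marker of the list, *smedwi-2*, was at -0.26 in *hh(RNAi)*, where its libraries overlapped those of the control. It was at 0.55 in *ptc(RNAi)* and at -0.83 between the RNAi treatments. Limma called *smedwi-2* in none of these (adjusted p = 0.9999, 0.508 and 0.186), and DESeq2 called only the last (adjusted p = 0.00396). The marker called in *ptc(RNAi)* was *mag-1*, a gland gene, at 1.43 (adjusted p = 0.0109 from limma), with 1274 and 1158 normalized reads against 451 and 474 in control CNS. The part of these cells in the values of *hh* and *ptc* was not tested, beyond the scaling on neuronal markers, under which *ptc* was at -1.25 in *hh(RNAi)* and -0.46 in *ptc(RNAi)*.

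The contigs whose profile was nearest were found by the Euclidean distance between log2(normalized reads + 1), each contig centred on its own mean, over the 8 libraries and 12936 other contigs. Nearest to *hh* were dd_Smed_v4_8476_0_1, which the study's marker tables do not name, at a distance of 1.54 (Pearson r = 0.98), and *if-1* at 1.61 (r = 0.97), where the median contig lay at 5.88. Names were looked up in those marker tables only. The nearest contig named in the study's marker tables was *spp-14*, at rank 21 with a distance of 2.19. The likeness to *if-1* rests on low levels in head fragments and in *hh(RNAi)*, where *if-1* had 2433 and 1835 normalized reads against 7432 and 11113 in control CNS.

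Nearest to *ptc* was its own second contig, at a distance of 0.20 (r = 0.99). Reads from shared sequence could be split between the *ptc* contigs, so this likeness may not be a separate observation. Next was dd_Smed_v4_8782_0_1, which the study's marker tables do not name, at 0.62 (r = 0.94), where the median contig lay at 2.41. Contig dd_Smed_v4_8782_0_1 had 187 and 180 normalized reads in head fragments, 104 and 113 in control CNS, 69.2 and 48.8 in *hh(RNAi)* and 92.7 and 118 in *ptc(RNAi)*. It was thus lowest in *hh(RNAi)* as *ptc* was, while its *ptc(RNAi)* libraries lay on either side of the control libraries. The nearest contig named in the marker tables was *smedwi-2*, a neoblast gene, at rank 622. *hh* and *ptc* were not near each other, at a distance of 7.33 and r = -0.52. The correlations are descriptions over 8 libraries that fall into 4 groups.

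**Figure D4:**
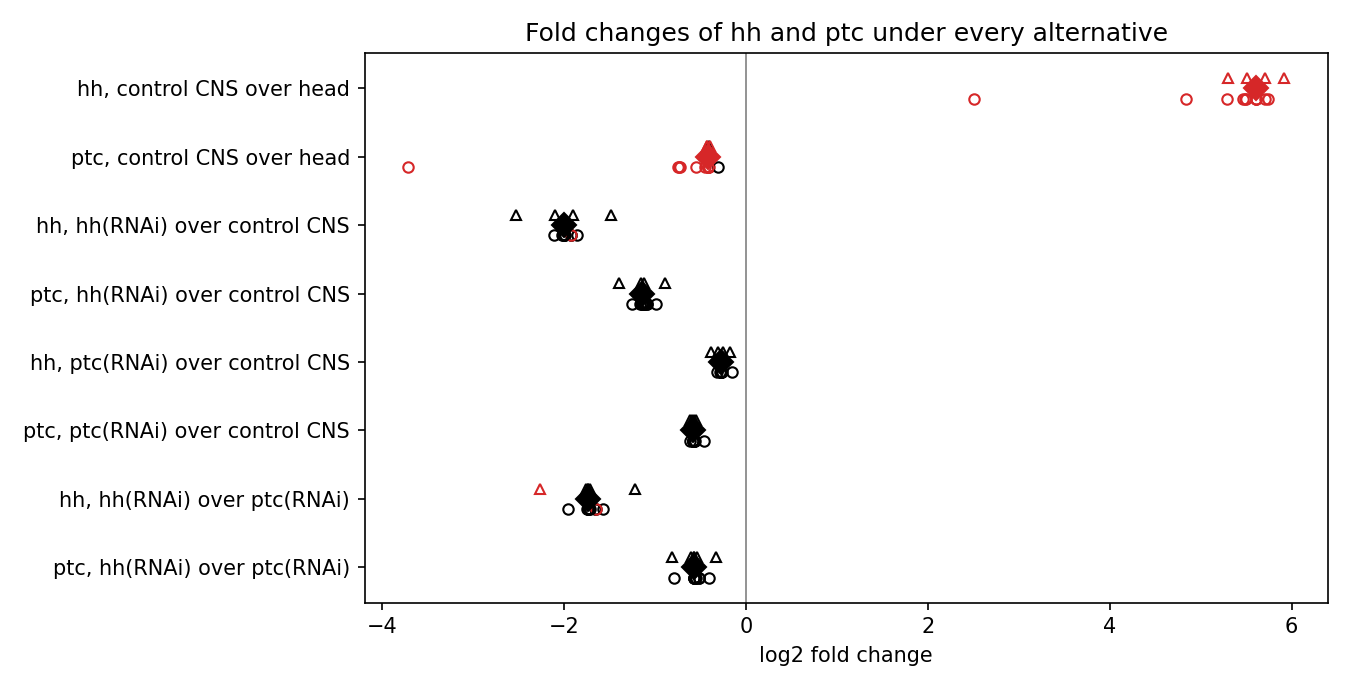
Log2 fold change (horizontal axis) of *hh* and *ptc* in each comparison as reported (diamonds), with 1 library left out (triangles) and under the other processing alternatives (circles), where red marks an adjusted p under 0.05. All values keep their side of 0, and the circles far from the diamonds in control CNS over head fragments, at 2.51 for *hh* and -3.71 for *ptc*, are those scaled on 4 neuronal markers.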

How the data were processed

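Bulk poly(A) RNA was sequenced in 8 libraries. The authors used Bowtie2 to place reads on the Dresden transcriptome, keeping the best single alignment, counted them with SAMtools and compared groups with DESeq2; the submitters' processing notes also name CASAVA, and versions are not given in the sources used here. The deposited signal columns are group means of size-factor-normalized reads. The deposited ratio (fold change), log2 and p-value columns hold the authors' own comparisons and were not used. Reads per library were recovered from the means. Reads of control CNS from both RNAi tables were identical in all 38634 contigs, and 13 differed in the head table. There a mean of 11508 or more could fit several pairs of reads, and the most even was used. The head means of *gapdh*, *mhc6*, *collagen*, *smedwi-2* and *mag-1* are in this range. The closeness of the head libraries in the sum of markers of other cells may therefore partly reflect that choice. *hh* and *ptc* had 1 solution. The agreement also identified which column of the head table is CNS.

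limma 3.58.1 under R 4.3.3 (trend, empirical Bayes, two-sided) gave the main test on log2(normalized reads + 1), with a minimum average of 100 and Benjamini-Hochberg adjustment. Alternatives on the recovered reads were DESeq2 1.42.0 and the quasi-likelihood test of edgeR 4.0.16 with TMM. For the comparisons in the order of the text, edgeR called 11452, 2, 37 and 49 contigs. An exact permutation test of 2 libraries against 2 cannot give a p below 0.333 and was not run. The recovery and the fits were tested on simulated data. For the fits, the simulated spread was the same for all contigs and was not taken from these libraries. That test therefore does not measure the power reached in the real data. Other alternatives were the minimum, the pseudocount, scaling on the median, *gapdh* or 4 neuronal markers, a fit over 8 libraries, leaving out each library and a call that also needs more than 2-fold.

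The members and lists were chosen with earlier results of these data known. Named contigs are *hh* and *ptc*, other contigs of their components, pathway genes, reference genes, cell type markers and the contigs with the nearest profiles. Contig lengths and sequences were not used here. Python 3.11.15 with numpy 2.4.6, pandas 2.3.3, scipy 1.17.1 and matplotlib 3.10.9 did the other steps.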

Additional observations from a re-analysis of the deposited data

How the results depend on the processing

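Of 128 alternative values for *hh* and *ptc*, 122 kept their direction and their side of the threshold, 3 lost a call, 3 gained one and 0 reversed. Some of this agreement was fixed in advance. The rule that also needs more than 2-fold keeps the main value and can only remove a call. Leaving out a control library cannot alter the estimate between the RNAi treatments. The 128 also include the sums of both *ptc* contigs, chosen after the data were seen. The tally is therefore not a measure of robustness. *ptc* in CNS against head fragments lost its call when scaled on *gapdh* (-0.30), without head library a, and where a call also needs more than 2-fold (-0.42). *hh* gained a call from DESeq2 in *hh(RNAi)* against control (-1.92) and against *ptc(RNAi)* (-1.65), and in the latter also without *hh(RNAi)* library b; the cause was not tested. With single libraries left out, *hh* ran from 5.30 to 5.91 in CNS against head fragments, -2.52 to -1.49 in *hh(RNAi)*, -0.38 to -0.18 in *ptc(RNAi)* and -2.26 to -1.21 between the RNAi treatments, and *ptc* from -0.43 to -0.40, -1.39 to -0.89, -0.62 to -0.55 and -0.82 to -0.33. Such a fit assumes that the lone library varies like the other group. Counts of calls depended on the tool: limma called 1 and DESeq2 41 contigs in *hh(RNAi)*, 42 and 161 in *ptc(RNAi)*, and 67 and 262 between the RNAi treatments. No paired analysis was possible because the deposited columns are group means and the recovered libraries carry no replicate number. The lowest CNS libraries held 42 reads on *hh* and 103 on *ptc*, so counting error limits how small a change could be seen.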
